A study of Mus musculus with 12 samples.

Results

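The genes of mitochondrial protein import and folding were followed in RNA-seq of mouse CD8+ T cells. The set was proposed with earlier results of these data known, and its rule reads gene symbols and no measured value. It takes every Timm or Tomm gene followed by a number, and 12 chaperones, peptidases, proteases and scaffold genes of the mitochondrial matrix and inner membrane (Hspd1, Hspe1, Hspa9, Grpel1, Pmpca, Pmpcb, Lonp1, Clpp, Clpx, Phb, Phb2 and Trap1), with pseudogene symbols left out. The rule found 34 of the 13780 genes in the count table, and all 34 passed the filter on low counts. CD8+ T cells were purified from spleens of wild type C57BL/6J mice. Naïve cells were lysed right after isolation and received no treatment. The other cells were activated for 72 h with beads carrying antibodies to CD3 and CD28 and with 10 U/ml IL-2, either in plain media or with 40 mM sodium lactate added. Each of the 3 groups had 4 libraries, with totals of 14726904 to 21478137 counts. The naïve cells came from 4 mice and the activated cells from 5, and the labels do not tie the naïve libraries to the donors of the activated ones. None of these libraries came from cells with added sodium chloride, so the lactate ion, sodium and osmolality cannot be told apart in this comparison. In bulk RNA, fewer cells of a type and less RNA per cell cannot be told apart either.

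Most mitochondrial proteins are made in the cytosol as precursors and pass through the TOM complex of the outer membrane. Precursors with an N-terminal presequence go on through the TIM23 complex and are pulled into the matrix by a motor around the chaperone mortalin, while small TIM chaperones carry hydrophobic precursors across the intermembrane space to the TIM22 complex. In the matrix the presequence is cut off, the protein folds with the help of a chaperonin, and AAA+ proteases remove what is damaged. Activated T cells are known to enlarge their mitochondria as they grow and divide, which requires the import of many newly made proteins.

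Activation with lactate gave higher mRNA levels of most import and folding genes than activation in plain media. Of these 34 genes, 22 rose and 0 fell in edgeR's quasi-likelihood test at a Benjamini-Hochberg adjusted p of at most 0.01. Among all 13767 genes tested, 25.1% passed the same threshold, 13.9% as higher and 11.1% as lower. The median log2 fold change of the 34 genes was 0.61, or 1.52-fold, against -0.002 over all genes, and 33 of 34 were above 0. With no adjustment, at p under 0.05, 28 genes were higher and 0 lower, beside 3414 and 3225 of all 13767. DESeq2 called 24 higher and 0 lower, beside 2244 and 2307 of all genes. In 29 of the 34 genes each of the 4 lactate libraries lay above each of the 4 media libraries, as in 23.2% of all genes. The summed level of the 34 genes, in CPM (counts relative to the library total, scaled by TMM), was 1840, 2004, 2077 and 1952 in the naïve libraries, 3437, 2757, 3604 and 3070 in media, and 5245, 4811, 4923 and 4832 with lactate. The groups did not overlap in this sum, which averaged 1968 ± 99.6 (SD, n = 4), 3217 ± 379 and 4953 ± 200 CPM. The lactate libraries had the highest sums and the naïve libraries the lowest. Genes with high counts weigh most in this sum. Hspa9 made up 11.7% of it in naïve cells, 17.5% in media and 21.7% with lactate. Lonp1 made up 4.7%, 14.2% and 8.93%.

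By the donor names in the labels, which give the stated 5 donors when read separately in each series of library numbers, cells of 3 mice were split between media and lactate. Media replicate 2 and lactate replicate 3 came from donors with no library in the other group. With donor as a block they add nothing to the difference, which then rests on the 3 shared mice. The fit with this block called 11 of the 22 genes and 992 genes in all, against 3451 without the block. The 11 were Clpp, Hspa9, Phb, Phb2, Timm9, Timm10, Timm13, Timm17a, Timm50, Tomm5 and Tomm40. For the other 11 the adjusted p with the donor block is printed beside the gene. The same block in a fit of the 8 activated libraries alone was added after the data were seen. It kept 19 of the 22 calls, lost Clpx, Tomm20 and Trap1 and added Hspe1 and Timm29. This fit called 3769 genes in all. Without a block, a fit of the same 8 libraries called 4590 genes in all. It kept all 22 calls and added Hspe1, Pmpcb, Timm29 and Timm44.

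**Figure D1:**
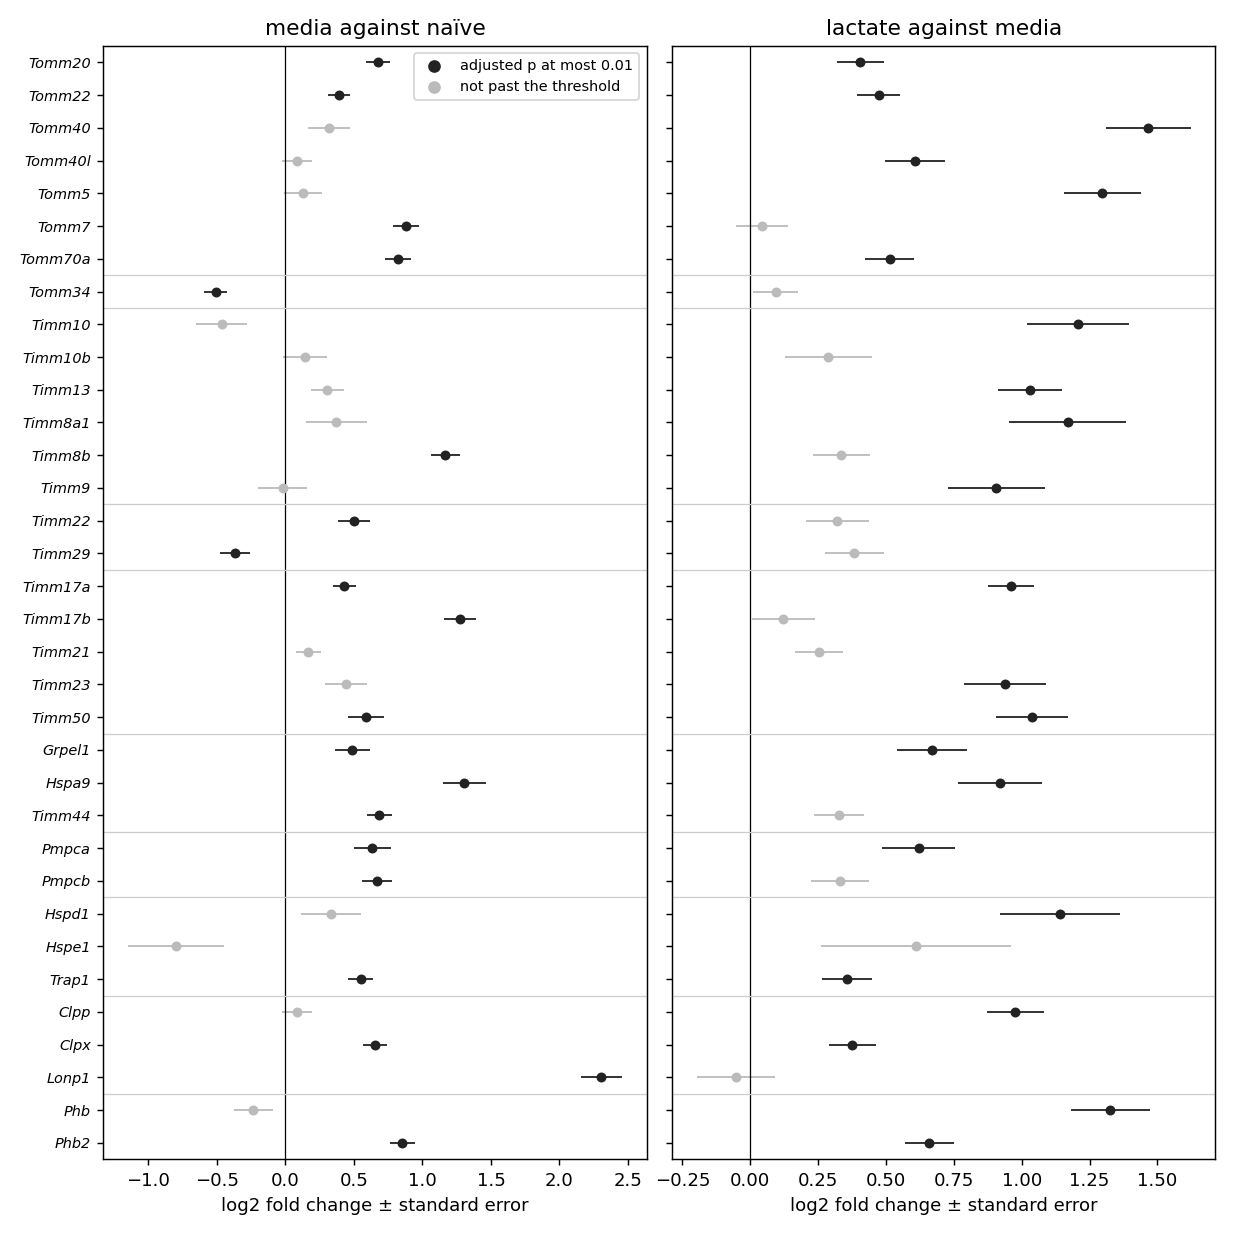
Log2 fold changes of the 34 genes with their standard errors in 2 comparisons, media against naïve on the left and lactate against media on the right, from 1 edgeR fit of 12 libraries. Genes are grouped by role between grey lines, and black points passed an adjusted p of 0.01: 18 higher and 2 lower on the left, 22 higher on the right.

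Activation in plain media raised 18 of the 34 genes over naïve cells and lowered 2, while 57.5% of all tested genes passed the threshold, 28.5% as higher and 29% as lower. The median log2 fold change was 0.44, against -0.029 over all genes. Lonp1, Hspa9, Timm17b, Timm8b and Tomm7 had the largest increases, and Tomm34 and Timm29 fell. Of the 22 genes that rose with lactate over media, 11 had also risen in media over naïve cells and 11 had not passed there. A further 7 genes rose in media over naïve cells and did not pass with lactate, namely Lonp1, Pmpcb, Timm17b, Timm22, Timm44, Timm8b and Tomm7. Both comparisons use the media libraries, so their fold changes are set side by side here without a measure of how they relate. Lactate against naïve cells, where 65% of all genes passed (33% higher and 32% lower), gave 30 higher and 1 lower, with a median log2 fold change of 1.09.

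Markers of other spleen cells moved with activation. The summed level of 4 B cell markers was 392 to 954 CPM in the naïve libraries, 8.14 to 14.7 in media and 5.23 to 7.44 with lactate. The 4 myeloid markers summed to 354 to 1120 CPM in the naïve libraries and to under 1 CPM in every activated library. Of the 4 red cell markers 3 were tested, with 75.7 to 2940 CPM in the naïve libraries and 0 to 1.74 CPM in the activated ones. The 2 dendritic cell markers summed to 7.9 to 40.7 CPM in the naïve libraries and to at most 0.0546 CPM after activation. Cd4 stood at 11.2 to 27.1 CPM and the 2 NK cell markers at 3.13 to 8 CPM in the naïve libraries, and neither sum reached 1 CPM in an activated library. The 4 CD8+ T cell markers were high throughout, at 1360 to 3110, 2260 to 2810 and 1780 to 2220 CPM. The part of these other cells in the comparisons with naïve cells was not tested. Between media and lactate no such marker list exceeded 14.7 CPM in any library.

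**Figure D2:**
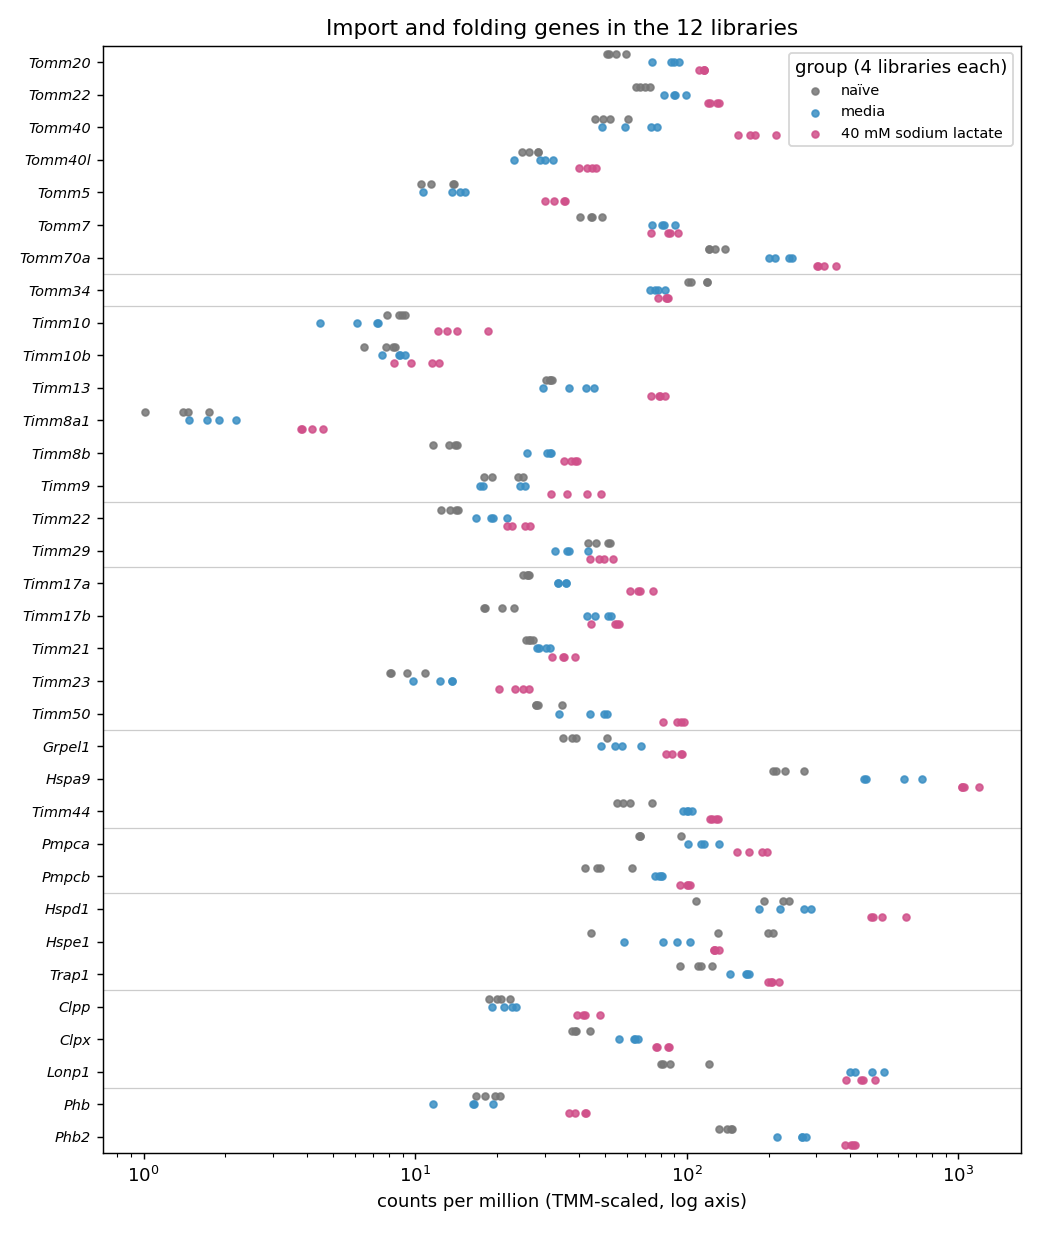
Level of each of the 34 genes in the 12 libraries, in TMM-scaled CPM on a log axis, with 4 naïve (grey), 4 media (blue) and 4 lactate (pink) libraries per gene. The pink points lie to the right of the blue points without overlap in 29 genes, while in Lonp1, Tomm7, Tomm34, Timm10b and Timm17b they overlap.

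Per exon length, in TPM (counts divided by exon length and set to the same total in every library), chaperones were the 4 highest genes of the set in naïve cells (Hspe1, Hspd1, Hspa9 and Trap1), while Lonp1 stood among the 4 highest in media and with lactate. Hspe1 was the highest in naïve cells, at 332 ± 167 (SD, n = 4) TPM, and Hspa9 the highest in media, at 459 ± 122 (SD, n = 4) TPM, and with lactate, at 790 ± 87.5 (SD, n = 4) TPM. Lonp1 moved from rank 11 of 34 in naïve cells to rank 2 in media and rank 4 with lactate. Timm8a1 was the lowest in all 3 groups, at 3.36 ± 0.666 (SD, n = 4), 4.42 ± 0.623 (SD, n = 4) and 9.10 ± 1.07 (SD, n = 4) TPM. The ranks are of group means, and neighbouring ranks were not tested against each other. Hspe1 ranged from 44.4 to 207 CPM over the naïve libraries. In naïve replicate 4 it stood below Hspd1 per exon length, at a ratio of Hspd1 to Hspe1 of 1.36. Hspe1, Hspd1 and Hspa9 have annotated pseudogenes named for them and only uniquely mapped reads were counted, so their levels and ranks are uncertain. Pseudogenes under other names were not searched for, in these or the other genes of the set.

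In the outer membrane 6 of 7 genes rose with lactate over media, beside 13.9% of all tested genes. Such counts rest on few genes in each complex, and differences between complexes were not tested. Tomm40, which forms the channel of the TOM complex, stood at 46.0, 49.1, 52.1 and 60.7 CPM in the naïve libraries, 77.8, 48.7, 73.8 and 59.1 in media and 214, 155, 171 and 178 with lactate. The lactate libraries were the highest, and naïve and media libraries overlapped. Tomm40 rose 2.77-fold (log2 1.47 ± 0.16 SE, adjusted p = 6.36e-05) with lactate, the largest change of the set, and its change in media over naïve cells was a log2 fold change of 0.32 ± 0.15 SE (adjusted p = 0.0826). Tomm5, a small subunit of the complex (ENSMUSG00000078713, chr4:45105208-45108114), stood at 10.5, 11.4, 13.9 and 13.7 CPM in the naïve libraries, 15.3, 10.7, 14.6 and 13.6 in media and 35.6, 32.4, 35.2 and 30.0 with lactate. Every lactate library was above every other library, and media and naïve libraries overlapped. Tomm5 rose 2.46-fold (log2 1.30 ± 0.14 SE, adjusted p = 7.4e-05), and media against naïve cells gave a log2 fold change of 0.13 ± 0.14 SE (adjusted p = 0.438).

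Tomm40l, a paralogue of Tomm40, stood at 24.8, 28.4, 26.2 and 28.3 CPM in the naïve libraries, 32.2, 23.1, 28.8 and 30.0 in media and 40.2, 46.2, 44.6 and 42.7 with lactate, again highest with lactate. It rose 1.52-fold (log2 0.61 ± 0.11 SE, adjusted p = 0.00116) with lactate, with an adjusted p of 0.0225 under the donor block, and media against naïve cells gave a log2 fold change of 0.08 ± 0.11 SE (adjusted p = 0.522). The exons of Tomm40l overlap those of Nr1i3 on the other strand over 64.3% of their length, and the strand setting of the counting was not given in the sources used here, so this value is uncertain. The receptor genes moved in both comparisons. Tomm70a, a receptor for carrier proteins, rose 1.77-fold (log2 0.82 ± 0.09 SE, adjusted p = 6.16e-06) in media over naïve cells and 1.43-fold (log2 0.51 ± 0.09 SE, adjusted p = 0.00103) with lactate, with an adjusted p of 0.0172 under the donor block. Tomm22, the central receptor, rose 1.31-fold (log2 0.39 ± 0.08 SE, adjusted p = 0.000801) in media over naïve cells and 1.39-fold (log2 0.47 ± 0.08 SE, adjusted p = 0.000723) with lactate, where the donor block gave an adjusted p of 0.0176. Tomm20, the presequence receptor, rose 1.60-fold (log2 0.67 ± 0.09 SE, adjusted p = 2.24e-05) in media over naïve cells and 1.32-fold (log2 0.41 ± 0.09 SE, adjusted p = 0.00317) with lactate, where the donor block gave an adjusted p of 0.0461. The 3 receptors were ordered naïve, media, lactate with no overlap between groups. The call for Tomm20 with lactate was lost without lactate replicate 3 or 4, and that for Tomm22 in media over naïve cells without naïve replicate 1 or media replicate 4.

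Tomm7, a small subunit known to modulate the assembly of the complex, was the exception. Its levels were 44.4, 44.8, 48.6 and 40.6 CPM in the naïve libraries, 82.6, 74.5, 81.2 and 90.4 in media and 73.6, 93.0, 86.7 and 85.5 with lactate. Both activated groups lay above the naïve libraries and overlapped each other. Tomm7 rose 1.84-fold (log2 0.88 ± 0.10 SE, adjusted p = 5.1e-06) in media over naïve cells. Lactate against media gave a log2 fold change of 0.04 ± 0.10 SE (adjusted p = 0.755). An approximate 95% interval of this log2 fold change, set from the SE, ran from -0.15 to 0.24. Tomm34, a cytosolic co-chaperone named with the TOM genes, stood at 103, 101, 119 and 119 CPM in the naïve libraries, 83.2, 73.5, 76.1 and 78.0 in media and 78.3, 85.3, 83.5 and 84.5 with lactate. It was lowest in the activated libraries, which overlapped each other. Tomm34 fell in media against naïve cells, with a log2 fold change of -0.51 ± 0.08 SE (adjusted p = 0.000146), and lactate against media gave a log2 fold change of 0.09 ± 0.08 SE (adjusted p = 0.404).

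Among the small TIM chaperones of the intermembrane space 4 of 6 rose with lactate, beside 13.9% of all tested genes. The 6 had a median log2 fold change of 0.97. Timm10 (ENSMUSG00000027076, chr2:84826997-84830213), which forms a hexamer with Timm9, stood at 8.74, 8.95, 9.16 and 7.84 CPM in the naïve libraries, 7.26, 4.47, 7.30 and 6.08 in media and 18.6, 13.1, 14.3 and 12.1 with lactate. It was highest with lactate and lowest in media, with no overlap between any of the groups. Timm10 rose 2.31-fold (log2 1.21 ± 0.19 SE, adjusted p = 0.000425) with lactate, and media against naïve cells did not pass, with a log2 fold change of -0.47 ± 0.19 SE (adjusted p = 0.0425). Timm9 stood at 18.0, 24.0, 24.9 and 19.2 CPM in the naïve libraries, 24.2, 17.8, 25.4 and 17.4 in media and 48.5, 43.0, 36.1 and 31.5 with lactate, with naïve and media libraries overlapping. Timm9 rose 1.87-fold (log2 0.91 ± 0.18 SE, adjusted p = 0.00182) with lactate and gave a log2 fold change of -0.02 ± 0.18 SE (adjusted p = 0.928) in media over naïve cells.

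Timm13 (ENSMUSG00000020219, chr10:80899450-80900969), the partner of the Timm8 proteins, stood at 31.4, 31.3, 30.2 and 31.8 CPM in the naïve libraries, 45.5, 29.5, 42.5 and 36.9 in media and 82.9, 79.7, 73.6 and 79.1 with lactate. The lactate libraries lay far above the others, which overlapped. It rose 2.04-fold (log2 1.03 ± 0.12 SE, adjusted p = 9.46e-05) with lactate, against a log2 fold change of 0.31 ± 0.12 SE (adjusted p = 0.036) in media over naïve cells, which passed without media replicate 2 (adjusted p = 0.00183). The family holds the paralogues Timm8a1 and Timm8b. Timm8a1, the mouse counterpart of the deafness-dystonia gene, had low levels of 1.01, 1.74, 1.40 and 1.46 CPM in the naïve libraries, 1.71, 1.47, 1.90 and 2.19 in media and 4.56, 3.83, 4.17 and 3.81 with lactate. The lactate libraries were the highest, and naïve and media libraries overlapped. It rose 2.25-fold (log2 1.17 ± 0.22 SE, adjusted p = 0.00123) with lactate, with an adjusted p of 0.0316 under the donor block, and gave a log2 fold change of 0.37 ± 0.22 SE (adjusted p = 0.159) in media over naïve cells. Timm8b stood at 14.3, 14.1, 13.3 and 11.6 CPM in the naïve libraries, 31.6, 25.9, 31.4 and 30.7 in media and 39.4, 35.4, 38.6 and 37.5 with lactate, in the order naïve, media, lactate with no overlap. Timm8b rose 2.25-fold (log2 1.17 ± 0.11 SE, adjusted p = 1.02e-06) in media over naïve cells, and lactate against media did not pass, at a log2 fold change of 0.34 ± 0.10 SE (adjusted p = 0.0214), save without naïve replicate 4 (adjusted p = 0.00761). Of its exon bases 15.6% overlap Nkapd1 on the other strand. Timm10b, a further small TIM, passed neither test, with a log2 fold change of 0.29 ± 0.16 SE (adjusted p = 0.174) for lactate against media.

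In the TIM23 complex of the inner membrane 3 of 5 genes rose with lactate, beside 13.9% of all tested genes. Timm17a (ENSMUSG00000062580, chr1:135295213-135313778), a channel subunit, had the smallest adjusted p of the set for lactate against media. Its levels were 24.9, 25.8, 26.3 and 26.1 CPM in the naïve libraries, 35.9, 33.5, 35.8 and 33.6 in media and 75.1, 61.9, 67.3 and 65.9 with lactate. The groups did not overlap, and the spread within each was narrow. It rose 1.95-fold (log2 0.96 ± 0.08 SE, adjusted p = 4.9e-05) with lactate and 1.35-fold (log2 0.43 ± 0.08 SE, adjusted p = 0.000572) in media over naïve cells. Timm17b, its X-linked paralogue (ENSMUSG00000031158, chrX:7899357-7908351), stood at 18.0, 20.9, 17.9 and 23.0 CPM in the naïve libraries, 52.5, 43.1, 46.1 and 51.5 in media and 44.5, 54.2, 56.1 and 55.4 with lactate. Both activated groups were above the naïve libraries and overlapped each other. Timm17b rose 2.42-fold (log2 1.28 ± 0.12 SE, adjusted p = 1.28e-06) in media over naïve cells, and lactate against media gave a log2 fold change of 0.12 ± 0.12 SE (adjusted p = 0.439).

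Timm23, which gives the complex its name (ENSMUSG00000013701, chr14:32180162-32201898), stood at 9.30, 8.11, 8.14 and 10.9 CPM in the naïve libraries, 12.3, 9.82, 13.7 and 13.7 in media and 25.0, 20.4, 26.3 and 23.3 with lactate. Lactate libraries were highest, and naïve and media libraries overlapped. It rose 1.92-fold (log2 0.94 ± 0.15 SE, adjusted p = 0.00052) with lactate, with an adjusted p of 0.0178 under the donor block, and gave a log2 fold change of 0.44 ± 0.15 SE (adjusted p = 0.0207) in media over naïve cells, which passed without naïve replicate 4 or media replicate 2. Timm50, the presequence receptor of the inner membrane (ENSMUSG00000003438, chr7:28305516-28312072), stood at 28.4, 27.8, 27.8 and 34.8 CPM in the naïve libraries, 49.4, 33.9, 50.9 and 44.1 in media and 97.3, 81.8, 92.3 and 94.8 with lactate. The lactate libraries were again above all others, and naïve and media libraries overlapped. It rose 2.05-fold (log2 1.04 ± 0.13 SE, adjusted p = 0.000133) with lactate and 1.50-fold (log2 0.59 ± 0.13 SE, adjusted p = 0.00151) in media over naïve cells, the latter lost without naïve replicate 1 or 2. Timm21, which links the complex to TOM, passed neither test, at a log2 fold change of 0.25 ± 0.09 SE (adjusted p = 0.0407) with lactate and a log2 fold change of 0.17 ± 0.09 SE (adjusted p = 0.119) in media over naïve cells.

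The TIM22 carrier translocase, with 2 genes in the set, showed no call with lactate, while 25.1% of all tested genes passed. Timm22, its channel, gave a log2 fold change of 0.32 ± 0.12 SE (adjusted p = 0.0436) for lactate against media after a rise of 1.42-fold (log2 0.50 ± 0.12 SE, adjusted p = 0.00209) in media over naïve cells, which was lost without naïve replicate 1 or media replicate 4. Timm29, a further subunit, stood at 46.2, 43.2, 51.2 and 51.9 CPM in the naïve libraries, 36.3, 36.8, 32.8 and 43.4 in media and 49.5, 44.1, 47.5 and 53.7 with lactate. Media libraries were lowest, and 1 of them reached into the naïve range. Timm29 fell in media against naïve cells, with a log2 fold change of -0.37 ± 0.11 SE (adjusted p = 0.00894), and lactate against media gave a log2 fold change of 0.38 ± 0.11 SE (adjusted p = 0.0138). The latter passed with DESeq2 (adjusted p = 0.00764), in the fit of the 2 groups alone (adjusted p = 0.00878), without naïve replicate 4 or media replicate 4, and with the donor block in the activated libraries alone (adjusted p = 0.00891). The fall missed the threshold in the fit of the 2 groups alone (adjusted p = 0.0205) and when naïve replicate 3 or 4, any of media replicates 1 to 3 or lactate replicate 1 was left out, at 0.0124 to 0.0319 for Timm29. The count of falls was then 1 in place of 2, except without naïve replicate 4, where Hspe1 passed.

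All 3 genes of the import motor rose in media over naïve cells, beside 28.5% of all tested genes. With lactate 2 of them rose again, beside 13.9%. Hspa9, the mortalin chaperone that pulls precursors inward, stood at 208, 213, 229 and 269 CPM in the naïve libraries, 631, 450, 735 and 456 in media and 1188, 1051, 1031 and 1033 with lactate. The groups did not overlap, and media libraries spread more widely than the others. Hspa9 rose 2.47-fold (log2 1.31 ± 0.16 SE, adjusted p = 1.06e-05) in media over naïve cells and a further 1.89-fold (log2 0.92 ± 0.16 SE, adjusted p = 0.000699) with lactate. Grpel1, its nucleotide exchange factor, rose 1.40-fold (log2 0.49 ± 0.13 SE, adjusted p = 0.00472) in media over naïve cells and 1.59-fold (log2 0.67 ± 0.13 SE, adjusted p = 0.00156) with lactate, where the donor block gave an adjusted p of 0.0306. Timm44, which tethers the motor to the channel, rose 1.61-fold (log2 0.69 ± 0.09 SE, adjusted p = 3.02e-05) in media over naïve cells, and lactate against media did not pass, at a log2 fold change of 0.33 ± 0.09 SE (adjusted p = 0.014), save with DESeq2 (adjusted p = 0.00957), in the fit of the 2 groups alone (adjusted p = 0.00265) and without naïve replicate 4 (adjusted p = 0.00113). The call for Grpel1 in media over naïve cells was lost with DESeq2's size factors in edgeR (adjusted p = 0.0122), in the fit of the 2 groups alone (adjusted p = 0.0163) and when any of naïve replicates 1 to 3, media replicates 3 and 4 or lactate replicates 3 and 4 was left out.

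The processing peptidase, which removes presequences, has a subunit pair. Pmpca stood at 66.7, 67.1, 67.3 and 95.5 CPM in the naïve libraries, 131, 101, 116 and 113 in media and 197, 153, 188 and 169 with lactate. The groups did not overlap. It rose 1.55-fold (log2 0.63 ± 0.14 SE, adjusted p = 0.0011) in media over naïve cells and 1.54-fold (log2 0.62 ± 0.14 SE, adjusted p = 0.0033) with lactate, with an adjusted p of 0.0511 under the donor block, and 20.4% of its exon bases overlap Inpp5e on the other strand. The call for Pmpca with lactate was lost when media replicate 2 or 4 or lactate replicate 1 or 3 was left out. Pmpcb, the catalytic subunit, stood at 42.0, 46.8, 48.0 and 62.6 CPM in the naïve libraries, 78.8, 76.5, 81.3 and 80.1 in media and 101, 94.5, 102 and 100 with lactate, also without overlap. Pmpcb rose 1.59-fold (log2 0.67 ± 0.11 SE, adjusted p = 0.00014) in media over naïve cells and gave a log2 fold change of 0.33 ± 0.11 SE (adjusted p = 0.028) with lactate, where it passed in the fit of the 2 groups alone (adjusted p = 0.00225) and without naïve replicate 4 (adjusted p = 0.00136).

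Hspd1 and Hspe1 encode the chaperonin and its lid and lie head to head on chromosome 1. Hspd1 (ENSMUSG00000025980, chr1:55077835-55088243) stood at 192, 238, 226 and 108 CPM in the naïve libraries, 270, 185, 287 and 220 in media and 640, 475, 521 and 485 with lactate. Lactate libraries were highest, and naïve replicate 4 was lowest. Hspd1 rose 2.21-fold (log2 1.14 ± 0.22 SE, adjusted p = 0.00165) with lactate, with an adjusted p of 0.0342 under the donor block, and media against naïve cells gave a log2 fold change of 0.33 ± 0.22 SE (adjusted p = 0.197). Hspe1 (ENSMUSG00000073676, chr1:55088132-55091307) stood at 131, 199, 207 and 44.4 CPM in the naïve libraries, 81.6, 58.8, 103 and 91.7 in media and 127, 126, 131 and 126 with lactate. The 4 lactate libraries were closely grouped above the media libraries, and the naïve libraries spanned the whole range of the others, with replicate 4 at the bottom. Lactate against media gave a log2 fold change of 0.61 ± 0.35 SE (adjusted p = 0.189) in the fit of all 12 libraries, which share 1 estimate of the spread. In the fit of the 2 groups alone the adjusted p was 0.00503. Media against naïve cells gave a log2 fold change of -0.80 ± 0.35 SE (adjusted p = 0.0605), and without naïve replicate 4 the fall passed, with an adjusted p of 0.000171 for Hspe1. The annotation holds 5 pseudogenes named for Hspd1, 6 for Hspe1 and 1 for Hspa9. Only uniquely mapped reads were counted, so reads that also match such a copy were not, and the levels of these genes are uncertain. Trap1, a matrix Hsp90 chaperone, rose 1.46-fold (log2 0.55 ± 0.09 SE, adjusted p = 0.000189) in media over naïve cells and 1.28-fold (log2 0.36 ± 0.09 SE, adjusted p = 0.00898) with lactate. The call with lactate was lost under each of the 3 other scalings in edgeR (adjusted p = 0.0155 to 0.0199), with the title-number block (adjusted p = 0.0138), with the donor block (adjusted p = 0.0973) and in 10 of the 12 fits that left out 1 library, all but those without naïve replicate 3 or 4.

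The start sites of this gene pair share letters that match a heat shock element, the binding motif of heat shock factors. Promoter windows of 250 bases before the start were taken from RefSeq (GRCm38.p6) for 30 of the 34 genes. The searched letters, on both strands, were GAA, TTC and GAA with any 2 bases between each for the heat shock element, CACGTG for the E-box, GCGCA and GCGC with any 1 base between them for the NRF1 motif, and TGATGCAA for the ATF4/CHOP element. The E-box reads the same on both strands. The stretches of 30 bases in the direction of Hspe1, with the matched letters in capitals, hold 2 overlapping matches to the heat shock element. They lie in the windows of both Hspe1 and Hspd1, so these are not independent matches.
Hspe1, chr1:55088051-55088080, plus strand: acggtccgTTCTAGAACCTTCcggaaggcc
Hspe1, chr1:55088056-55088085, plus strand: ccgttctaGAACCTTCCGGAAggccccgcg
Another annotated start of Hspd1 has, in the direction of that gene, an E-box and an NRF1 motif, in capitals.
Hspd1 E-box, chr1:55088306-55088335, minus strand: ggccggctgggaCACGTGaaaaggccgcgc
Hspd1 NRF1 motif, chr1:55088283-55088312, minus strand: gccgcgcagcGCGCAGGCGCactcagcccc
The heat shock element was found for 3 of the 30 genes (10%), against 0.45% of 9775 tested genes with a window, and the third was Timm9. The E-box was found for 6 genes (20%), against 9.92%, the NRF1 motif for 2 (6.67%), against 9.5%, and the ATF4/CHOP element for 0, against 0.675%. These shares describe letters in a window and were not tested.

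The genes with an E-box did not move alike. Besides Hspd1 they were Phb, Timm8a1, Timm9, Tomm20 and Lonp1. Hspd1 and Timm8a1 rose with lactate and not in media over naïve cells. So did Phb and Timm9, while Tomm20 rose in both and Lonp1 rose in media over naïve cells alone. The windows of these 4 genes are shown to set this side by side, with the E-box in capitals and, in Timm9 and Tomm20, also the heat shock element TTCTAGAAATTTC and the NRF1 motif GCGCGTGCGC.
Phb, chr11:95666707-95666956, plus strand: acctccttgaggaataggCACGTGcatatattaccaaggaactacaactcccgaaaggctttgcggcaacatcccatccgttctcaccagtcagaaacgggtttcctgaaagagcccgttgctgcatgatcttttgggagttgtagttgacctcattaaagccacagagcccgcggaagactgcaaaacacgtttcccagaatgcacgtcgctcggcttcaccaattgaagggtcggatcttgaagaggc
Timm9, chr12:71136676-71136925, minus strand: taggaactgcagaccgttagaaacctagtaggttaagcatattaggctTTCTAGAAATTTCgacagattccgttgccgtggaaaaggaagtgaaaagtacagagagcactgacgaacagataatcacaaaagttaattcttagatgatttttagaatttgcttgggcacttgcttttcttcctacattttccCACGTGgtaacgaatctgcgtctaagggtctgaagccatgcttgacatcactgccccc
Tomm20, chr8:126945922-126946171, minus strand: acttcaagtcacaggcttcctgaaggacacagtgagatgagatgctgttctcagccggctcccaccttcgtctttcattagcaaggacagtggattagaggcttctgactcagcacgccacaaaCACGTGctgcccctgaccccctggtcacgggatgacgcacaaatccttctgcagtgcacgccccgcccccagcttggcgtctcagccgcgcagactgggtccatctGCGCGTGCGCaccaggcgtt
Lonp1, chr17:56626904-56627153, minus strand: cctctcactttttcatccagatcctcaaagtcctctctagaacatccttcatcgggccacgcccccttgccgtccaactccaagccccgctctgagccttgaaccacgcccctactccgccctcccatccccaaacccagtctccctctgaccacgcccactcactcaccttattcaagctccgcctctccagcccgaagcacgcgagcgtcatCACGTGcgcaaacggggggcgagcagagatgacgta

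Lonp1 (ENSMUSG00000041168, chr17:56614297-56626887), the main ATP-dependent protease of the matrix, had the largest increase in media over naïve cells. It stood at 81.5, 80.3, 87.1 and 121 CPM in the naïve libraries, 480, 414, 533 and 399 in media and 386, 494, 436 and 447 with lactate. Media and lactate libraries overlapped, far above the naïve libraries. Lonp1 rose 4.94-fold (log2 2.31 ± 0.15 SE, adjusted p = 6.42e-08). Lactate against media gave a log2 fold change of -0.05 ± 0.14 SE (adjusted p = 0.809). An approximate 95% interval of this log2 fold change, set from the SE, ran from -0.34 to 0.24. The other matrix protease is the ClpXP complex. Clpp (ENSMUSG00000002660, chr17:56990305-56996188), its proteolytic core, stood at 18.7, 20.0, 20.7 and 22.4 CPM in the naïve libraries, 22.7, 19.1, 23.5 and 21.3 in media and 47.7, 39.4, 42.2 and 41.3 with lactate. Naïve and media libraries overlapped, and all lactate libraries were above them. Clpp rose 1.97-fold (log2 0.98 ± 0.11 SE, adjusted p = 6.91e-05) with lactate and gave a log2 fold change of 0.09 ± 0.11 SE (adjusted p = 0.496) in media over naïve cells. Clpx, the unfoldase of the complex, stood at 38.7, 37.8, 39.2 and 43.9 CPM in the naïve libraries, 64.7, 56.0, 66.3 and 64.0 in media and 77.1, 85.7, 85.0 and 77.9 with lactate, without overlap between groups. Clpx rose 1.57-fold (log2 0.65 ± 0.09 SE, adjusted p = 2.41e-05) in media over naïve cells and 1.30-fold (log2 0.38 ± 0.09 SE, adjusted p = 0.00424) with lactate, with an adjusted p of 0.0628 under the donor block. The call for Clpx with lactate was also lost with scaling to total counts (adjusted p = 0.0119) and when naïve replicate 1, either of media replicates 2 and 4, or any of lactate replicates 2 to 4 was left out.

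The prohibitins form rings in the inner membrane that hold assembling proteins and proteases. Phb (ENSMUSG00000038845, chr11:95666957-95680773) stood at 18.1, 16.8, 19.7 and 20.6 CPM in the naïve libraries, 19.4, 11.7, 16.4 and 16.4 in media and 42.2, 38.6, 42.6 and 36.9 with lactate. It was highest with lactate, and media libraries reached from below the naïve range into it. Phb rose 2.51-fold (log2 1.33 ± 0.15 SE, adjusted p = 7.29e-05) with lactate and gave a log2 fold change of -0.23 ± 0.14 SE (adjusted p = 0.169) in media against naïve cells. Phb2 (ENSMUSG00000004264, chr6:124712336-124716950) stood at 131, 147, 140 and 146 CPM in the naïve libraries, 274, 214, 265 and 266 in media and 417, 384, 402 and 409 with lactate, in the order naïve, media, lactate without overlap. Phb2 rose 1.81-fold (log2 0.85 ± 0.09 SE, adjusted p = 3.54e-06) in media over naïve cells and 1.58-fold (log2 0.66 ± 0.09 SE, adjusted p = 0.000194) with lactate.

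Partner genes shifted relative to each other. The ratio of levels per exon length was taken within each library, which does not depend on scaling, for 8 pairs of paralogues or partners. The log2 ratios of 4 against 4 libraries were compared by a two-sided exact permutation test, whose smallest p over 70 arrangements is 0.0286. Benjamini-Hochberg adjustment was over 24 tests, with a threshold of 0.05. The test treated the libraries as independent and took no account of the donors shared by media and lactate. The ratios were not tested with a donor block. For lactate against media 6 of 8 pairs passed, for media against naïve cells 5 and for lactate against naïve cells 4. Whether a ratio is higher or lower depends on which gene is written first, so directions are not counted across pairs. Ratios of other gene pairs were not taken, so these counts have no share over all genes beside them. Every pair that passed had an exact p of 0.0286, the smallest possible, and an adjusted p of 0.0458. This adjusted p depends on how many of the 24 tests reached the smallest p. The pairs were chosen with earlier results of these data known. The comparisons share libraries, so a low ratio in media alone gives both a fall from naïve cells and a rise with lactate. The calls are therefore not independent of each other.

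Timm17a to Timm17b had ratios of 0.447, 0.4, 0.475 and 0.367 in the naïve libraries, 0.222, 0.252, 0.252 and 0.212 in media and 0.546, 0.37, 0.388 and 0.385 with lactate. The media libraries were below all others, and naïve and lactate libraries overlapped. The log2 ratio changed by -0.85 ± 0.11 (SE) from naïve cells to media and by 0.84 ± 0.15 (SE) from media to lactate. From naïve cells to lactate it differed by -0.01 ± 0.16 (SE), with an adjusted p of 0.943 in the exact test. The ratio of Timm8a1 to Timm8b, with the genes in this order, was also lowest in media. It was 0.029, 0.048, 0.041 and 0.049 in the naïve libraries, 0.021, 0.022, 0.023 and 0.027 in media and 0.043, 0.04, 0.04 and 0.038 with lactate. Its log2 value changed by -0.80 ± 0.20 (SE) from naïve cells to media and by 0.79 ± 0.09 (SE) from media to lactate. Clpp to Clpx had 1.383, 1.516, 1.511 and 1.459 in the naïve libraries, 1.006, 0.977, 1.016 and 0.956 in media and 1.769, 1.316, 1.418 and 1.518 with lactate. The media libraries lay close together at about equal levels of both genes, below all others. The log2 ratio changed by -0.57 ± 0.04 (SE) from naïve cells to media and by 0.60 ± 0.09 (SE) from media to lactate.

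Phb to Phb2 had ratios of 0.184, 0.152, 0.187 and 0.188 in the naïve libraries, 0.094, 0.073, 0.082 and 0.082 in media and 0.134, 0.134, 0.141 and 0.12 with lactate. The 3 groups did not overlap, and lactate stood between media and naïve cells. Its log2 ratio changed by -1.10 ± 0.11 (SE) from naïve cells to media, by 0.68 ± 0.09 (SE) from media to lactate, and by -0.42 ± 0.09 (SE) from naïve cells to lactate. Tomm40 to Tomm40l had 2.108, 1.962, 2.259 and 2.437 in the naïve libraries, 2.74, 2.388, 2.913 and 2.241 in media and 6.027, 3.81, 4.359 and 4.72 with lactate. Naïve and media libraries overlapped, and lactate libraries were above both, with a log2 ratio higher by 0.87 ± 0.16 (SE) than in media. Hspd1 to Hspe1 had 0.82, 0.666, 0.608 and 1.36 in the naïve libraries, 1.843, 1.751, 1.56 and 1.334 in media and 2.807, 2.099, 2.21 and 2.149 with lactate, highest with lactate, where the log2 ratio was higher by 0.52 ± 0.14 (SE) than in media and by 1.49 ± 0.28 (SE) than in naïve cells. Media against naïve cells did not pass for this pair, with an exact p of 0.0571.

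The remaining pairs shifted least with lactate. Timm9 to Timm10 had 0.389, 0.506, 0.513 and 0.462 in the naïve libraries, 0.629, 0.743, 0.656 and 0.537 in media and 0.496, 0.621, 0.478 and 0.491 with lactate. The media libraries were above the naïve libraries, and the lactate libraries overlapped both. The log2 ratio was higher by 0.45 ± 0.13 (SE) in media than in naïve cells, and lactate against media did not pass (difference of -0.30 ± 0.13 SE, exact p = 0.0571). Pmpca to Pmpcb had 1.902, 1.719, 1.684 and 1.832 in the naïve libraries, 1.995, 1.587, 1.704 and 1.686 in media and 2.336, 1.944, 2.21 and 2.022 with lactate, and media and lactate libraries overlapped. This pair did not pass for lactate against media either (0.29 ± 0.09 SE, exact p = 0.0571), and with lactate it was higher by 0.25 ± 0.07 (SE) than in naïve cells.

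**Figure D3:**
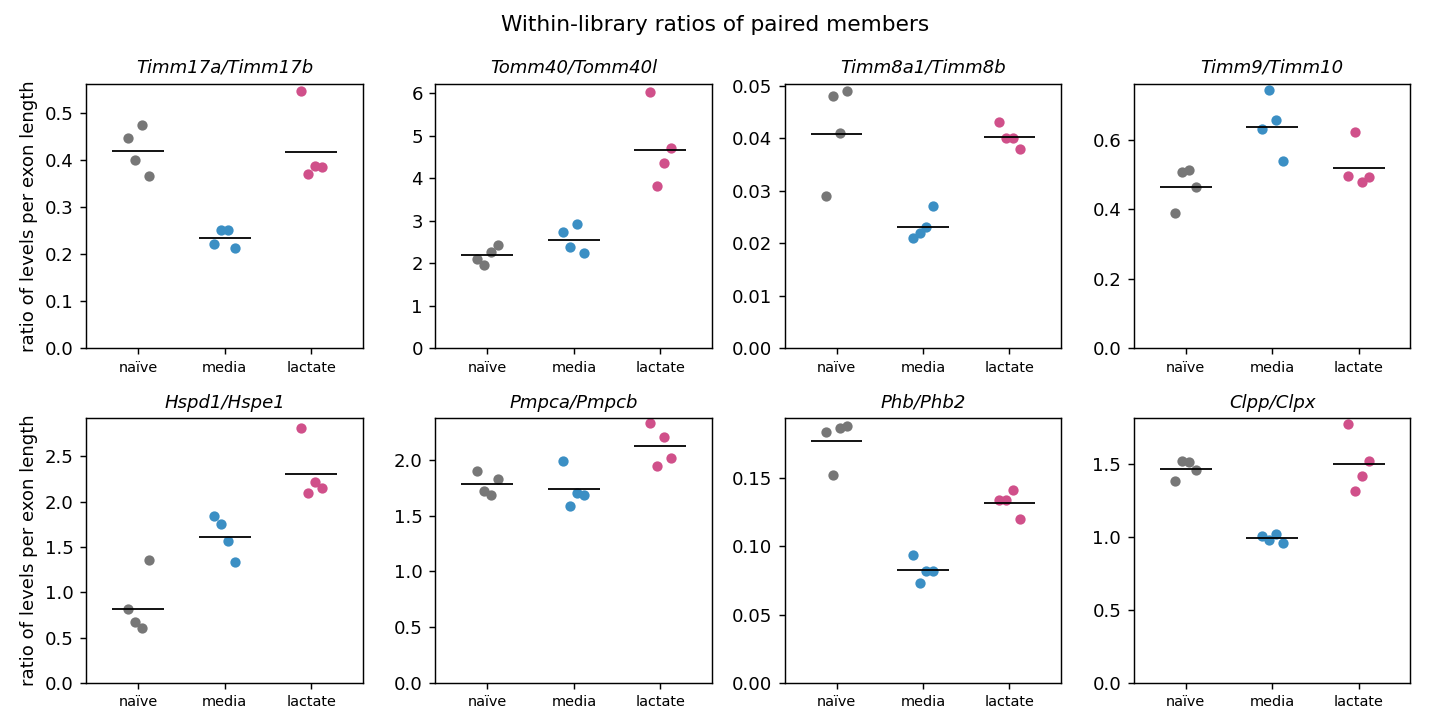
Within-library ratio of levels per exon length for 8 gene pairs, with 1 point per library, 4 libraries per group and a line at the geometric mean. In Timm17a/Timm17b, Timm8a1/Timm8b and Clpp/Clpx the media points (blue) lie below both other groups, with mean ratios of 0.234, 0.0233 and 0.988.

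The library numbers in the labels fall into a low series, 1 to 9, with 8 libraries, and a high series, 16 to 26, with 4. The difference of mean log2 CPM between lactate and media was computed within each. In 32 of the 34 genes (94.1%) it was above 0 in both series, as in 40.6% of all tested genes, and its median over the 34 genes was 0.61 in the low and 0.52 in the high series. Tomm40 gave 1.47 and 1.56, Phb 1.38 and 1.27, and Tomm5 1.34 and 1.25. Timm8a1 differed more, with 1.26 and 0.83. Lonp1 gave -0.12 and 0.15 and Tomm7 0.06 and -0.07, on either side of 0. The high series had 1 media library, so its differences have no replicate check. For media against naïve cells the high series has 1 library of each group.

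**Figure D4:**
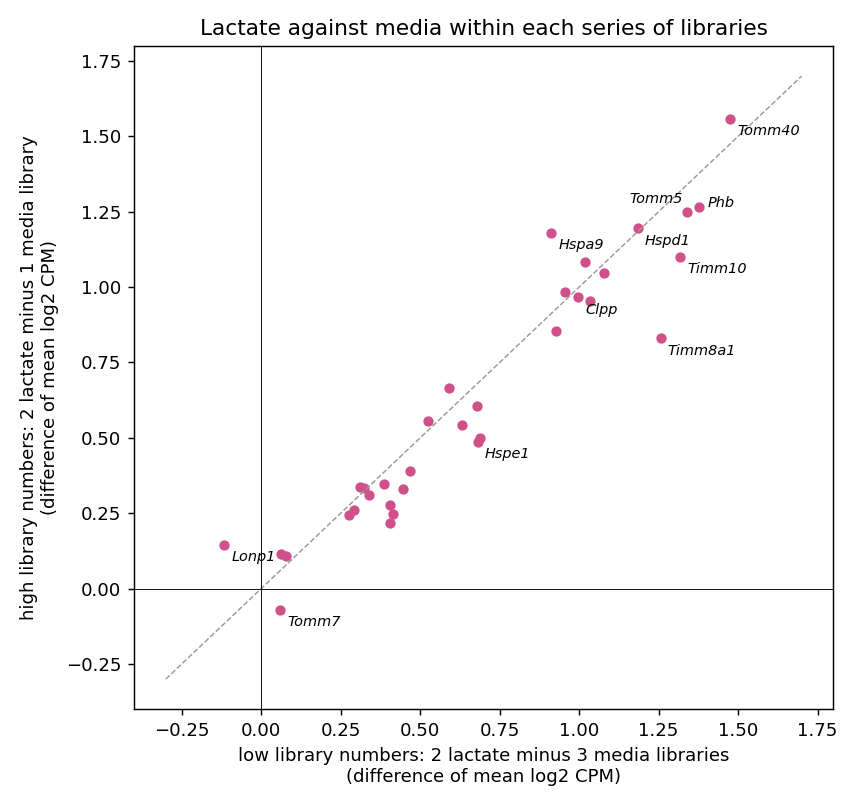
Difference of mean log2 CPM, lactate minus media, of the 34 genes in the low library numbers (x axis, 2 lactate and 3 media libraries) and the high library numbers (y axis, 2 lactate and 1 media library), with 11 genes named and a dashed line of equal values. In 32 genes both values are above 0, and Lonp1 and Tomm7 lie on either side of 0.

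Of 31 further genes of import and quality control, 14 rose with lactate over media and 2 fell, at a median log2 fold change of 0.42, beside 13.9% higher and 11.1% lower and a median of -0.002 over all genes. With the donor block 6 of the rises passed, those of Dnajc15, Htra2, Mtx1, Mtx2, Samm50 and Stoml2, and 1 of the falls, that of Afg3l2. The other 9 genes then had adjusted p values of 0.0109 (Hscb) to 0.074 (Dnlz), with 0.0137 for Chchd4. Chchd4, the oxidoreductase of the intermembrane space relay, rose most, at 2.71-fold (log2 1.44 ± 0.25 SE, adjusted p = 0.00093), and its partner Gfer rose 1.49-fold (log2 0.58 ± 0.13 SE, adjusted p = 0.00327). Chchd4 oxidises incoming precursors, among them the small TIM chaperones, and Gfer reoxidises Chchd4. Of the sorting and assembly machinery of the outer membrane, Samm50 rose 1.64-fold (log2 0.71 ± 0.09 SE, adjusted p = 0.000116), Mtx1 1.73-fold (log2 0.79 ± 0.11 SE, adjusted p = 0.000278) and Mtx2 1.65-fold (log2 0.72 ± 0.11 SE, adjusted p = 0.000293). Among proteases and scaffolds, Htra2 rose 2.05-fold (log2 1.04 ± 0.15 SE, adjusted p = 0.000234), Stoml2 1.67-fold (log2 0.74 ± 0.11 SE, adjusted p = 0.000275), Afg3l1 1.46-fold (log2 0.54 ± 0.11 SE, adjusted p = 0.00161) and Spg7 1.34-fold (log2 0.42 ± 0.09 SE, adjusted p = 0.00279). Pitrm1, which degrades cleaved presequences, rose 1.80-fold (log2 0.85 ± 0.17 SE, adjusted p = 0.00166). Romo1, a small inner membrane protein, rose 1.77-fold (log2 0.82 ± 0.15 SE, adjusted p = 0.00134), Dnajc15 1.52-fold (log2 0.61 ± 0.12 SE, adjusted p = 0.0021), Dnlz, a helper of mortalin, 1.54-fold (log2 0.62 ± 0.16 SE, adjusted p = 0.00789) and Cox18, a membrane insertase, 1.47-fold (log2 0.55 ± 0.14 SE, adjusted p = 0.00886).

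The 2 genes that fell with lactate were Hscb, a co-chaperone of iron-sulphur cluster assembly, and Afg3l2, a subunit of the m-AAA protease. Hscb had 18.3, 19.1, 17.1 and 14.9 CPM in the naïve libraries, 31.3, 41.8, 31.7 and 37.6 in media and 16.4, 22.5, 20.5 and 19.2 with lactate. Media libraries were the highest without overlap, and lactate against media gave a log2 fold change of -0.86 ± 0.14 SE (adjusted p = 0.000514). Afg3l2 had 71.8, 75.5, 78.3 and 65.9 CPM in the naïve libraries, 369, 414, 404 and 343 in media and 212, 245, 223 and 233 with lactate, with lactate between naïve and media. It fell in lactate against media, with a log2 fold change of -0.74 ± 0.09 SE (adjusted p = 0.000115), after the largest increase of the list in media over naïve cells, 5.25-fold (log2 2.39 ± 0.09 SE, adjusted p = 2.08e-09). Its paralogue Afg3l1 was among the genes that rose with lactate. Media against naïve cells gave 15 higher and 0 lower of the 31, with a median log2 fold change of 0.27, beside 28.5% higher and 29% lower and a median of -0.029 over all genes. With no adjustment, at p under 0.05, 4 were lower, beside 4940 of all 13767 genes. DESeq2 called 3 lower, beside 4553 of all genes. Mipep, a presequence peptidase, rose 2.72-fold (log2 1.44 ± 0.15 SE, adjusted p = 3.4e-06) and Stoml2 2.32-fold (log2 1.22 ± 0.11 SE, adjusted p = 8.43e-07) in media over naïve cells. The lowest values, Mtx3 at a log2 fold change of -0.38 ± 0.24 SE (adjusted p = 0.177), Grpel2 at a log2 fold change of -0.34 ± 0.14 SE (adjusted p = 0.0463) and Xpnpep3 at a log2 fold change of -0.31 ± 0.11 SE (adjusted p = 0.0283), did not pass.

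The mitochondrial ribosomal proteins and the cytosolic CCT chaperonin, which folds newly made cytosolic proteins such as actin and tubulin, moved in the same direction. Of 77 ribosomal protein genes 51 rose and 0 fell with lactate, beside 13.9% higher and 11.1% lower of all tested genes. Their median log2 fold change was 0.59, against -0.002 over all genes. At unadjusted p under 0.05, 66 were higher and 1 lower, beside 3414 and 3225 of all 13767 genes. DESeq2 called 57 higher and 1 lower, beside 2244 and 2307 of all genes. All 8 CCT genes rose, with a median of 0.65. In media over naïve cells the medians were 0.60 and 0.85, against 0.44 for the import and folding genes. The differences between these lists were not tested.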

How the data were processed

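RNA was sequenced from 12 libraries of mouse CD8+ T cells. Per the submitters' processing notes and the methods of the paper, the authors used bcl2fastq 2.20.0.422, STAR 2.7.5b (mm10, GRCm38), removal of PCR duplicates, and featureCounts on uniquely mapped reads over Ensembl exons. The deposited values are raw counts per gene, with exon lengths. The library kit keeps strand, and whether featureCounts used it is not given in the sources used here.

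In R 4.3.3, genes with at least 1 CPM in 3 libraries were kept (13767 of 13780), scaled by TMM and fitted in edgeR 4.0.16 (quasi-likelihood, 3 groups, 12 libraries, no block). Tests were two-sided, adjusted by Benjamini-Hochberg over all tested genes, with a threshold of 0.01. The biological coefficient of variation was 23.5%, and depth was 14726904 to 21478137 counts per library. CPM are TMM-scaled, TPM use the exon lengths, and log2 values for ratios use a prior count of 2. DESeq2 1.42.0, other scalings, filters, blocks and left-out libraries were the alternatives. Every gene of the set could be named. Values per library are given for the 10 genes with the smallest p for lactate against media, the 5 largest and 5 smallest changes in media against naïve cells, and the pairs. The set, the lists and the pairs were chosen with earlier results of these data known.

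Of the 34 genes, all 34 were found in GENCODE M21 with equal exon lengths, and 16 share exon bases with another gene. Motifs were searched with Python 3.11.15. Donors come from the labels, read separately in each series of library numbers, so that media and lactate libraries of 1 donor share a mouse. Deviations from the group means of same-donor libraries correlated at 0.374, 0.211 and 0.553 across genes, and those of different donors at -0.441 to 0.371, the highest being media replicate 4 with lactate replicate 3 of the same series. Equal title numbers gave 0.374, 0.297, 0.0038 and 0.553.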

Additional observations from a re-analysis of the deposited data

Results flagged for a closer look

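Of 102 groups of 4 libraries (34 genes in 3 groups), 8 held a library far from the other 3, by Dixon's test of the gap to the nearest library relative to the range, on log2 CPM. Chance alone flags about 1 in 20 groups. Media replicate 2, from a donor with no lactate library, was low in 3 of them: Phb2 stood at 214 CPM against 265 to 274 in the other media libraries, Timm8b at 25.9 against 30.7 to 31.6, and Trap1 at 144 against 166 to 169. Naïve replicate 4, the only naïve library of the high series, was high in 2: Pmpca stood at 95.5 CPM against 66.7 to 67.3, and Timm50 at 34.8 against 27.8 to 28.4. Over all tested genes this library also stood apart, by a chi-square per gene comparing the counts of a pair of libraries. It gave 120 to 134 against the other naïve libraries, which gave 23.9 to 43.7 among themselves. Lactate replicates 3 and 4, of different donors by the labels, were the closest pair within a group, at 5.58. Lactate replicate 1 was high for Hspa9, at 1188 CPM against 1031 to 1051, and low for Timm17b, at 44.5 against 54.2 to 56.1. Lactate replicate 4 was low for Tomm20, at 111 CPM against 115 to 116. Without media replicate 2 the median log2 fold change of the 34 genes for lactate against media was 0.50, in place of 0.61.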

How the results depend on the processing

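For lactate against media, the 34 genes kept 0 falls under all 24 alternatives run, with 11 (donor block) to 28 (adjusted p of at most 0.05) rises. The donor block, with 992 genes called in all, gave a median log2 fold change of 0.49, and in the activated libraries alone 0.50. Both values rest on the donors shared by media and lactate. Title numbers do not all follow donors, and their block left 21 of the 22 rises, without Trap1, with 3256 genes called in all. Leaving out 1 library gave 18 to 26 rises and a median of 0.50 to 0.62. The fit with 18 rises, without lactate replicate 3, called 2316 genes in all. The fit with 26 rises, without naïve replicate 4, called 4830. For media against naïve cells, leaving out 1 library gave 14 to 20 rises, 1 to 2 falls and a median of 0.33 to 0.50. The fit of the 2 groups alone gave 1 fall there. Counts over all genes are not given here for media against naïve cells in these fits. For lactate against naïve cells, DESeq2 and its size factors in edgeR both gave a median of 0.99, and leaving out 1 library gave 0.98 to 1.13.

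Among the 31 further genes, the donor block left 6 rises and 1 fall with lactate. In media against naïve cells DESeq2 gave 3 falls and a threshold of 0.05 also 3, and leaving out 1 library gave 0 to 1 falls and a median of 0.18 to 0.32. For lactate against naïve cells their median was 0.52 with DESeq2 and with its size factors, and 0.52 to 0.65 without 1 library.

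Small changes that had not passed crossed 0. Tomm7 with lactate gave -0.017 with the donor block, -0.004 in the activated libraries alone and -0.004 to 0.105 without 1 library, and Lonp1 -0.117 to 0.031 without 1 library. In media against naïve cells, leaving out 1 library gave -0.016 to 0.172 for Tomm40l, -0.005 to 0.227 for Tomm5, -0.160 to 0.055 for Timm9 and -0.019 to 0.141 for Clpp. Among log2 ratios, leaving out 1 library gave, for lactate against naïve cells, -0.141 to 0.048 for Timm17a/Timm17b, -0.178 to 0.080 for Timm8a1/Timm8b (0.041 with a prior count of 0.5) and -0.051 to 0.091 for Clpp/Clpx, and for media against naïve cells -0.104 to 0.006 for Pmpca/Pmpcb. The cause of these shifts was not tested. In each of these changes and ratios the libraries of the groups compared overlapped, with 4 libraries a group and 3 shared donors.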
